A study of Mus musculus with 2 samples.

Results

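Fosb, Egr2, Hspa1a and Chac1 are 4 genes that cells switch on quickly after a stimulus or under stress, and they are described here in inguinal white fat of H4-TG transgenic and wild-type (WT) mice. They were chosen by symbol, as the rows annotated to exactly 1 of these names in the authors' deposited table of probes higher in H4-TG, and each name had 1 such row. They are 4 of the 800 genes named in that table. Because the comparison of H4-TG with WT selected the table, the differences below are a description and carry no test. The mice were males of about 8 weeks, given normal chow and kept at room temperature, and H4-TG mice carry a transgene, of which neither the full name nor the promoter is given in the labels. Each genotype is represented by 1 array hybridised with pooled RNA of 4 animals, so the data hold no spread between mice and no replicate check of any value.

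Immediate early genes are transcribed within minutes of a signal, without new protein synthesis, by factors that already sit in the cell, such as SRF and CREB. Fosb encodes a FOS family partner of JUN proteins in the AP-1 transcription factor, and Egr2 (Krox20) a zinc finger transcription factor known from myelinating Schwann cells and, in cultured preadipocytes, as an early promoter of adipogenesis. Hspa1a encodes inducible HSP70, a chaperone that HSF1 switches on when proteins unfold, for example on heating. Chac1 encodes an enzyme that breaks down glutathione and is a target of ATF4, the transcription factor of the integrated stress response. Immediate early and heat shock genes are also known to respond to dissection and handling of tissue. The labels do not say how long the fat of each pool was handled, and pool and genotype cannot be told apart.

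The windows before the annotated starts of these genes are shown to set the sites of the factors named above beside the genes they belong to; the motif marked in each was chosen after the search. The sequences are the 250 bases before a start in RefSeq (GRCm38.p6), read 5′ to 3′ on the strand of the gene. Capitals mark the core of a cyclic AMP response element (TGACG) in Fosb, CArG boxes (the SRF site) in Egr2, an inverted pair of heat shock units (GAANNTTC) in Hspa1a and the core of a C/EBP-ATF response element (TGATGNAA, here on the opposite strand) in Chac1. Egr2 has 5 annotated windows, of which 4 held a CArG box. The 2 most upstream of these 4 are printed as Egr2 a and Egr2 b. In those of the 4 not printed, TGACG lies at the same spacing around the CArG box as in Egr2 b. They may thus hold the same box, and the windows are not separate finds.
Fosb, chr7:19310046-19310295, minus strand: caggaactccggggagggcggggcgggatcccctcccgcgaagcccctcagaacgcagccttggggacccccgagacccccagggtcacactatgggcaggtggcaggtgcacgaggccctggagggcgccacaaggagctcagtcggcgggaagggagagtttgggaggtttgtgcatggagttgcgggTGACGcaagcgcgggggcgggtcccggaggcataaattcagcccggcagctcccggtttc
Egr2 a, chr10:67537316-67537565, plus strand: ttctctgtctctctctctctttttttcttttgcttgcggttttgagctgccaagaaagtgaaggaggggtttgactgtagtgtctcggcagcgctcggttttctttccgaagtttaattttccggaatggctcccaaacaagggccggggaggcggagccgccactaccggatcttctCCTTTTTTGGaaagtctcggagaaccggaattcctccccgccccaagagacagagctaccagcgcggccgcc
Egr2 b, chr10:67537619-67537868, plus strand: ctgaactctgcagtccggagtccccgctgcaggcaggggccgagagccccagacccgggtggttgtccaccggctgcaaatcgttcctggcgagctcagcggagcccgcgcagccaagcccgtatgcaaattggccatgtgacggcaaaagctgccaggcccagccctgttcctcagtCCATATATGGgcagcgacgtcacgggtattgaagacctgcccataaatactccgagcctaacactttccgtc
Hspa1a, chr17:34972157-34972406, minus strand: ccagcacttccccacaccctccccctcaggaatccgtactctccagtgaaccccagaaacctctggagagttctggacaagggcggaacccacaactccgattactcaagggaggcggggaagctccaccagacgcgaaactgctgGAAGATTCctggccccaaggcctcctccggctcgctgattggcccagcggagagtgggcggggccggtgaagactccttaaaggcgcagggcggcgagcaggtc
Chac1, chr2:119350992-119351241, plus strand: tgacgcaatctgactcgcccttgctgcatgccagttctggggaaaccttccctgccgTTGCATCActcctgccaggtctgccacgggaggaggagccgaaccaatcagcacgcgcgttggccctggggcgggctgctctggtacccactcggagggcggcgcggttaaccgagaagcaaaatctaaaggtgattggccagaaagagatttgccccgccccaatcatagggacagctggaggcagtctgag

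Motifs were searched on both strands of all 32851 RefSeq windows of 250 bases. A CArG box was found in 1.47% of them and, among the 4 genes, in Egr2. Its boxes in Egr2 a and Egr2 b differ in their central bases, and each begins 72 bases before its own start. TGACG, found in 17.8% of windows, begins 60 bases before the start of Fosb and 250 bases before that of Chac1. Egr2 b holds TGACG on both sides of its CArG box. GAANNTTC, found in 6.69% of windows, begins 104 bases before the start of Hspa1a. TGATGNAA, found in 3.45%, lies from 193 to 186 bases before the start of Chac1. The CCAAT box (CCAAT, 33.8% of windows) was present in at least 1 window of Egr2, Hspa1a and Chac1. GC boxes (GGGCGG, 32.7%) were present in at least 1 window of each of the 4 genes. Egr2 has 5 windows and the other genes 1 each, so counts of genes and shares of windows are unlike measures. Neither printed window of Egr2 held both a CCAAT and a GC box. In Fosb a pair of GC boxes overlaps by 1 base. The AP-1 site TGANTCA and the TATA box TATAAA stood in 6.75% and 12.4% of windows and in none of the 4 genes' windows. These matches describe letters in the windows and show no binding.

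**Figure D1:**
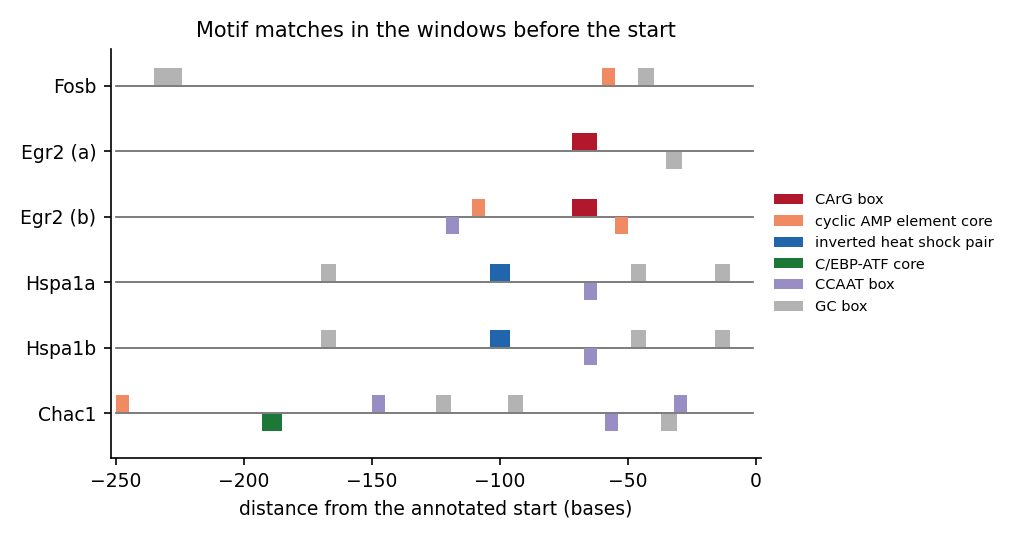
Motif matches in the 250 bases before the annotated starts of Fosb, Egr2 (a and b), Hspa1a, its near-identical copy Hspa1b, and Chac1. The horizontal axis is the distance from the start in bases, and boxes above a line are on the strand of the gene and boxes below it on the other strand. Hspa1a and Hspa1b show the same arrangement, and the CArG boxes lie in Egr2.

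The probe of Fosb had a log2 signal of 6.37 on WT and 7.26 on H4-TG. The H4-TG signal was thus higher by 0.88 on the log2 scale, or 1.84-fold. On the WT array 50.6% of the 35556 probes (transcript clusters) were dimmer than this probe, and of the H4-TG probes 66.1% were. A rank of this kind places a probe among probes, whose brightness also depends on their own sequences, and does not rank the genes' transcript levels. The authors' deposited table, which states no genome build, places the probe on chromosome 7 at 19888045 to 19895394.

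The probe of Egr2 read 6.77 on WT and 7.40 on H4-TG, a difference of 0.63, or 1.55-fold. It was brighter than 56.9% of probes on WT and than 68.5% on H4-TG. Among the 4 genes it had the smallest difference and lay nearest to the lower limit of the authors' deposited table at 1.5-fold. Probes below that limit have no gene name here, so none just outside it can be named. The Egr2 probe is placed on chromosome 10 at 67000626 to 67004936 in the authors' deposited table.

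The probe annotated to Hspa1a alone read 6.37 on WT and 7.15 on H4-TG, a difference of 0.78, or 1.72-fold. Its place on the array went from 50.5% to 64.4% of probes dimmer. A second probe, annotated to both Hspa1a and Hspa1b, read 7.21 and 7.87, which is 1.58-fold. It has a separate place on chromosome 17, at 35094024 to 35095952. Both probes were higher on the H4-TG array, a direction fixed in advance because both stand in the authors' deposited table of higher probes. The windows before the starts of Hspa1a and Hspa1b are identical at 247 of 250 bases (98.8%), which does not bear on what the probes detect. The coding sequences are also known to be nearly the same, and how far each probe separates the copies was not tested. Hspa1l is the related chaperone gene expressed mainly in testis. The authors' deposited table places it at higher coordinates than Hspa1a (chromosome 17, 35106135 to 35109069 for Hspa1a), with 607 bases between them. The window of Hspa1a is on the minus strand, so this gap lies on the side of its start. Hspa1l read 4.30 on WT and 5.15 on H4-TG, 1.81-fold, and its H4-TG signal was above that of 28.9% of probes.

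The probe of Chac1 read 5.95 on WT and 6.85 on H4-TG, a difference of 0.90, or 1.87-fold, the largest of the 4. It was below the median of the WT array by 0.38 and above the median of the H4-TG array by 0.55. On WT 43.6% of probes were dimmer and on H4-TG 59.4%. Its position in the authors' deposited table is chromosome 2, 119176992 to 119180117.

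**Figure D2:**
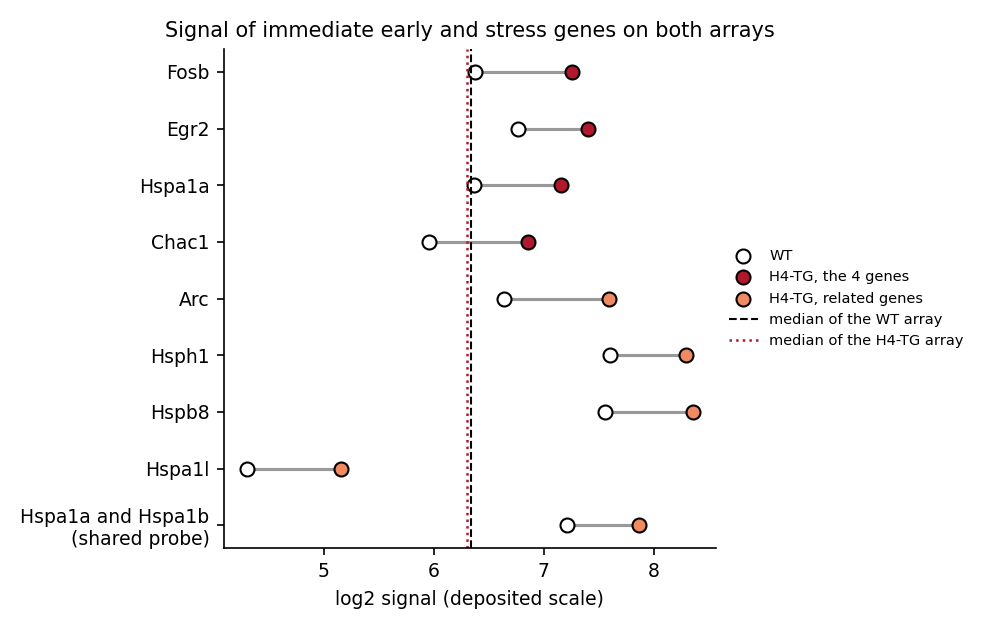
Log2 signal in WT (open circles) and H4-TG (filled circles) for Fosb, Egr2, Hspa1a and Chac1 and for 5 probes of related genes, with 1 array per genotype and no error bars. Dashed and dotted lines are the medians of the WT (6.34) and H4-TG (6.31) arrays. Every probe shown is from the authors' table of higher probes, and the H4-TG circle lies to the right in each.

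The 4 differences ranged from 0.63 to 0.90, a width of 0.27, with a median of 0.83. The difference over all probes had a median of -0.01 and quartiles of -0.24 and 0.20. All 4 genes were at least 1.5-fold higher and 0 were at least 2-fold higher. Of all 35556 probes 4.27% were at least 1.5-fold higher and 7.57% at least 1.5-fold lower. At least 2-fold higher were 0.892%. These shares include 6622 probes with identifiers below the lowest in the authors' table, which carry no gene name. Without them 1066 probes were at least 1.5-fold higher, against 1518 with them. The 4 genes had a mean signal above the median over all probes, and of the probes above it 2.31% were at least 1.5-fold higher. Nothing is read from the first count, because the table was selected at that fold. In the order of difference, 433 probes of the array had a larger difference than Chac1, 465 than Fosb, 640 than Hspa1a and 1209 than Egr2. Within the 869 rows of the authors' deposited table, Chac1 stood at place 188, Fosb at 208, Hspa1a at 299 and Egr2 at 652.

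Differences of this size also occurred in the opposite direction at the same signal level. Among the 2916 probes whose mean log2 signal lay within 0.25 of that of Fosb, 43 (1.47%) were higher in H4-TG by at least as much as Fosb and 73 (2.50%) were lower by at least as much. Around Chac1 41 of 2990 probes were higher and 90 lower by its difference, around Hspa1a 57 and 111 of 2924, and around Egr2 62 and 182 of 2907. For each of the 4 genes the lower probes thus outnumbered the higher ones. The balance changed when the 6622 probes with identifiers below the lowest in the authors' table, which carry no gene name, were left out. Then 29 probes were higher and 18 lower by the difference of Fosb, 28 and 16 for Chac1, and 36 and 33 for Hspa1a, whereas for Egr2 40 were higher and 82 lower. With no replicate array, the spread of a single probe between repeat measurements is not known.

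**Figure D3:**
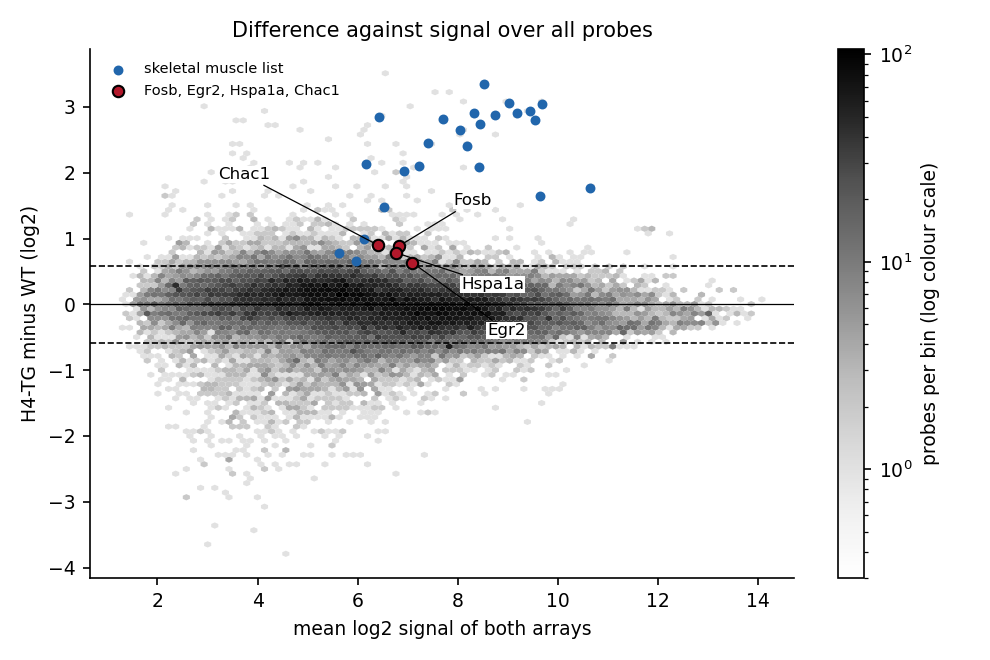
Difference of H4-TG minus WT (log2, vertical axis) against the mean log2 signal of both arrays (horizontal axis) for all 35556 probes, shaded by the number of probes per bin. Fosb, Egr2, Hspa1a and Chac1 (red) lie between 0.63 and 0.90 at mean signals of 6.40 to 7.09, above the dashed line of 1.5-fold at 0.58. Genes of the skeletal muscle list (blue) reach 3.35.

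The wider pathways were followed through lists of genes, of which only those in the authors' deposited table have a named value. That table holds 2.44% of the probes of the array. It holds 869 rows, fewer than the 1518 probes at least 1.5-fold higher. Without the 6622 probes with identifiers below its lowest, which carry no gene name, 1066 were at least 1.5-fold higher. Most probes outside it were thus below 1.5-fold higher, but the difference of any single missing gene is not known. Such a gene may also not be on the array. Of 41 immediate early genes 3 were listed, Fosb and Egr2 among them, and the third was Arc, a synaptic regulator that is also an SRF target, with 6.64 on WT and 7.60 on H4-TG (1.94-fold). Fosb was the listed member of the 4 FOS family genes, and Egr2 that of the 4 EGR genes. Fos, Jun, Junb, Egr1, Atf3, Nr4a1 and Ier2, the genes most often used to follow this response, were among the 38 with no value here.

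Of 26 heat shock genes 4 were listed. Beside Hspa1a and Hspa1l these were Hsph1, which encodes the HSP110 nucleotide exchange factor of HSP70, and Hspb8, a small heat shock protein gene that muscle also expresses. Hsph1 read 7.60 on WT and 8.29 on H4-TG (1.61-fold), and Hspb8 read 7.56 and 8.36 (1.74-fold). The other 22, which include the HSP40 gene Dnajb1, the HSP90 gene Hsp90aa1 and the co-chaperone gene Bag3, have no value here.

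Of 30 genes of the ATF4 integrated stress response Chac1 was the 1 listed. Its co-targets Ddit3, Trib3, Asns and Sesn2 were among the 29 with no value. None of the 21 genes of the unfolded protein response of the endoplasmic reticulum, the 20 genes of glutathione metabolism and oxidative stress, or the 16 hypoxia genes was listed, and Chac2, the constitutive relative of Chac1, was one of these. Of 14 glucocorticoid-responsive genes 2 were listed. Zbtb16, a zinc finger transcription factor gene, read 8.99 on WT and 9.64 on H4-TG, and Pdk4, the pyruvate dehydrogenase kinase gene, read 10.08 and 10.86.

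**Figure D4:**
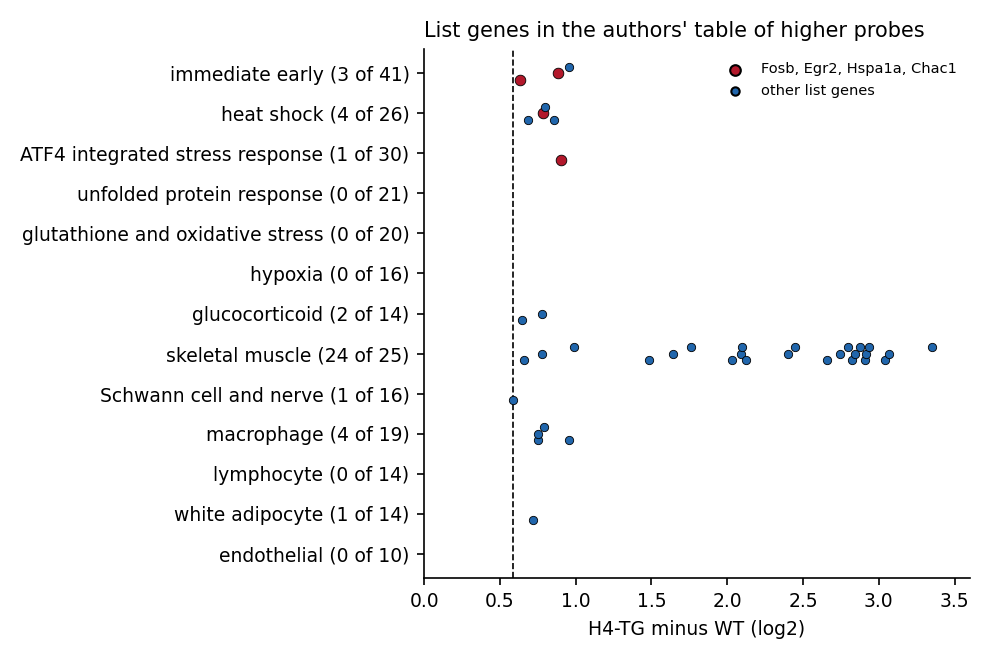
Difference of H4-TG minus WT (log2, horizontal axis) for each list gene in the authors' table of higher probes, 1 point per gene, with the number listed and the size of the list beside each name. The dashed line marks 1.5-fold. The stress and immediate early genes lie between 0.63 and 0.95, and the skeletal muscle genes extend from 0.66 to 3.35.

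Some markers of other cell types also stood in the table. A marker had to be higher in H4-TG to be listed, so the values below describe the listed markers and give no direction for a list as a whole. Of 25 skeletal muscle markers 24 were listed, 21 of them at least 2-fold higher, and the log2 of the summed linear signal of the 24 was 11.96 on WT and 14.43 on H4-TG. The myosin light chain gene Myl1 among them read 9.76 on WT and 11.53 on H4-TG. Exercised muscle is known to express Fosb and Hspa1a, and the part of muscle RNA in the 4 differences was not tested. Of 19 macrophage markers 4 were listed (Retnla, Cd163, Ccl6 and Mgl2), and the other 15 have no value here. Retnla read 9.19 on WT and 10.14 on H4-TG, and Cd163 read 6.35 and 7.14. Macrophages express Egr2 on alternative activation, and their part in its difference was not tested either. Of 16 Schwann cell and nerve markers, the cells in which Egr2 drives myelin genes, only Gfap was listed (4.91 and 5.50), and the myelin genes Mbp and Prx have no value here. None of the 14 lymphocyte or 10 endothelial markers was listed. Of 14 white adipocyte markers only angiotensinogen (Agt) was, at 6.95 on WT and 7.67 on H4-TG, so the labelled tissue cannot be checked against Adipoq, Fabp4 or Lep. In pooled tissue RNA, more cells of a type and more RNA per cell cannot be told apart.

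The genes nearest to each of the 4 were found by the Euclidean distance over the 2 log2 signals, WT and H4-TG, among rows of the authors' table with 1 symbol. Nearest to Fosb were Hspa1a (distance 0.10) and the peptide transporter gene Slc15a2 (0.11). Nearest to Egr2 were Pde4dip (0.03) and 6330406I15Rik (0.05), and nearest to Hspa1a were Cables1 (0.03) and the macrophage receptor gene Cd163 (0.03). Nearest to Chac1 were Fabp3, the fatty acid binding protein gene of muscle and heart (0.03), and Smtnl2 (0.10). Over 2 arrays such nearness says that the pairs of signals are alike and no more.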

How the data were processed

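Trizol was used to extract the RNA, which was biotin-labelled for mouse gene arrays, per the labels' protocols; each pool held 4 animals. The deposited value table gives a log2 signal for 35556 probes on both arrays. The submitters' processing notes name MAS5; its version, the summarisation and any scaling are not stated. Per the file headers, the authors' analysed table gives log2 bi-weight signals of H4TG and CON and their linear fold ratio for 869 rows, whose signals lay within 0.005 of the value table. Of these rows 822 carry 1 symbol, updated through RefSeq genes of GRCm38 (746 matched by accession, 46 by symbol, 10 by synonym, 20 unmatched), and 47 were not assigned. The brightest probe stood for a gene. Differences are H4-TG minus WT as deposited, with no test, because each genotype has 1 array; the number of arrays limits the precision. The signal minimum used in alternatives was the median of the mean signal, as given in the closing section. The 4 genes and all lists were chosen with earlier results of these data known. Genes were named if they were 1 of the 4, stood on a list and in the table, or were among the 2 nearest rows to 1 of the 4; others named for context were chosen after the values were seen. The scaling steps were tested on simulated data. Python 3.11.15, numpy 2.4.6, pandas 2.3.3, statsmodels 0.14.6 and matplotlib 3.10.9 were used.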

Additional observations from a re-analysis of the deposited data

How the results depend on the processing

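The differences of Fosb, Egr2, Hspa1a and Chac1 stayed between 0.63 and 0.95 under median centring, quantile normalization, centring along signal level (lowess, span 0.3) and the fold ratios of the authors' table. All 16 values lay within 0.1 of the deposited ones. As the genes come from a table of higher probes, this says nothing about stability. Quantile normalization gave the highest values, with 0.95 for Fosb, 0.94 for Chac1, 0.85 for Hspa1a and 0.71 for Egr2. Ranks moved by less than 5 percentage points without the lowest identifiers. Among the rows of the authors' table alone, which by construction is another set of probes, the rank on WT and H4-TG was 78.3% and 75.9% for Fosb, 82.0% and 77.6% for Egr2, 78.0% and 74.9% for Hspa1a, and 71.1% and 70.7% for Chac1. Above the signal minimum of 6.31, 410 of 17778 probes (2.31%) were at least 1.5-fold higher, against 1518 of 35556 (4.27%) with no minimum; the cause was not tested. At 2-fold, the count was 0 for the immediate early, heat shock, ATF4, glucocorticoid, nerve, macrophage and white adipocyte lists, and above the signal minimum it was 0 for the nerve list. The mean over several probes was not run because each of the 4 genes has 1 probe annotated to it alone. No paired analysis was possible because a genotype is a single array, so none could be left out either.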

Other observations

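Chaperone genes outside the heat shock list were looked for by description, a search chosen after seeing the data. Of the rows of the authors' deposited table, 10 carry heat shock or DnaJ in their description, with differences from 0.62 to 1.02. Hspa1a, Hspa1l, Hsph1 and Hspb8 from the list are among them. A row had to be higher in H4-TG to be listed, so the direction was fixed in advance. The authors' table holds 2.44% of all probes, and how many probes of the array carry such a description is not known. Of these 10, 6 lay above the signal minimum and 1 reached 2-fold. That one was Hspb6, the small heat shock protein HSP20 of muscle and heart, with 8.20 on WT and 9.21 on H4-TG (2.02-fold). Hspb7, another small heat shock protein gene of heart and muscle, read 4.60 and 5.55 (1.93-fold). Hspa12b, a distant HSP70 relative known from endothelial cells, read 7.06 and 7.72 (1.58-fold). The HSP40 gene Dnajc5g read 4.12 and 4.74 (1.54-fold).

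The 6 probes nearest in identifier to each of the 4 genes, which have no name except the shared Hspa1a and Hspa1b probe, had median differences of 0.01 around Fosb, 0.07 around Egr2, 0.15 around Hspa1a and -0.14 around Chac1. Of them 0 were at least 1.5-fold higher around Fosb, Egr2 and Chac1, and 1, the shared probe, around Hspa1a. Over all probes the share was 4.27%, so nothing is read from such counts among 6 probes. Around Chac1, 4 of the 6 were lower in H4-TG, the lowest by -0.82.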
